A study of Mus musculus with 16 samples.

Results

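Non-canonical Wnt signalling was examined through 10 genes, chosen by symbol: the ligands Wnt5a, Wnt5b, Wnt11 and Wnt4, and the receptors and polarity proteins Ror1, Ror2, Ryk, Ptk7, Vangl1 and Vangl2. All 10 were among the 17655 genes listed in the deposited samples. RNA had been sequenced from mouse preSC, a precancerous stage of small cell lung cancer. The labels describe them as lung neuroendocrine cells expressing the granin gene Chga; Rb1 and Trp53 are null and Rbl2 carries a heterozygous null allele in every sample of both groups. The "empty" group (8 samples) had been infected with a control lentivirus and the "Wnt5a" group (8 samples) with a lentivirus for Wnt5a, and both groups had received doxycycline (1 µg/mL) for 48 hours. The labels do not give the species or form of the Wnt5a insert, so endogenous and lentiviral transcripts are summed in the value of Wnt5a.

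Wnt ligands are secreted, lipid-modified proteins. In the non-canonical branches they signal without stabilising beta-catenin: in the planar cell polarity branch, receptors and membrane proteins orient the cytoskeleton, in part through the kinase JNK, and in the calcium branch Frizzled receptors activate phospholipase C and calcium-dependent kinases. Wnt5a is the best known ligand of these branches, Ror1, Ror2 and Ryk are single-pass receptors that bind it, and Vangl1 and Vangl2 are membrane proteins of the polarity complex. The question addressed was which of these receptors were transcribed in the control cells, and whether their transcripts differed in cells carrying Wnt5a. Receptor protein and its presence at the cell surface, which reading Wnt5a requires, were not measured.

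Members of the set have close relatives, which matters for assigning short reads. The coding sequences of Wnt5a and Wnt5b were 77.8% identical over 1111 aligned bases, and the longest stretch they shared without a difference was 29 bases, at bases 994 to 1022 of the Wnt5a coding sequence and 970 to 998 of Wnt5b. Ror1 and Ror2 were 67.2% identical, with a longest shared stretch of 23 bases, at 604 to 626 of Ror1 and 616 to 638 of Ror2. These stretches (GENCODE M21 transcripts, coding strand, 5′ to 3′) are printed with 15 flanking bases on each side, to show the sites where the paralogs are hardest to tell apart, with the shared bases in capitals.

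Wnt5a: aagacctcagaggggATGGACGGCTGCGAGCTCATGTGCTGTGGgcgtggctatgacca
Wnt5b: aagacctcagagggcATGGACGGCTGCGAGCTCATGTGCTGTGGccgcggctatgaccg
Ror1: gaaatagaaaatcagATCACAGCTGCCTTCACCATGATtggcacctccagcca
Ror2: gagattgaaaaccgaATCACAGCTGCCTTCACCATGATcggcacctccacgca

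By construction, the bases next to the capitals differ within each pair. Vangl1 and Vangl2 were 70.6% identical (longest shared stretch 21 bases) and Wnt11 and Wnt4 63.2% (14 bases). Of the 50-base windows of the longest transcript, at least 99.5% occurred in no other gene for 8 of the members. The exceptions were Wnt4 (94.8% of windows) and Wnt11 (90.7%). Strand use in the counting is not given in the sources used here, so opposite-strand transcripts could contribute reads: Gm8398 covers 8.80% of the exon bases of Wnt11 and Gm2670 covers 4.58% of those of Wnt5a.

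Promoters are shown for the members with the highest and the lowest level per kilobase in empty cells, Ryk and Wnt11 (values below), with their CpG dinucleotides marked. RefSeq lists a second Wnt11 start, and the window with more CpG is printed. The windows are the 250 bases before the gene start in RefSeq (GRCm38.p6), 5′ to 3′ on the gene's strand, with each CpG (letters CG) in capitals. Ryk lies on the plus strand at chr9:102834670-102834919 and Wnt11 on the plus strand at chr7:98834862-98835111.

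Ryk: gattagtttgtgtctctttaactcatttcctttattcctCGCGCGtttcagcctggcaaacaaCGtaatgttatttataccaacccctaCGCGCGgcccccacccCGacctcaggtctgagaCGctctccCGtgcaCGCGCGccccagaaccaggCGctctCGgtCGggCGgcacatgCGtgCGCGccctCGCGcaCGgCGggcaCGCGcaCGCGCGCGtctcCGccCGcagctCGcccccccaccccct
Wnt11: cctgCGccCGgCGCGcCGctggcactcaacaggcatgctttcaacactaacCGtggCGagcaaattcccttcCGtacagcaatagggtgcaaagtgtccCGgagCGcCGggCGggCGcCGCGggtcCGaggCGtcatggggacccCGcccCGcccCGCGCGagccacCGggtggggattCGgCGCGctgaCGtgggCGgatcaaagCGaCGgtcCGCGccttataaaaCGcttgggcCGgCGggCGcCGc

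The Ryk window held 33 CpG, a number reached by 4.03% of the 32851 RefSeq promoters of the same length, whose median was 6. The printed Wnt11 window held 37 CpG, reached by 2.20% of promoters, and the other Wnt11 window 16 CpG, reached by 25.4%. No methylation or binding was measured here.

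The 8 samples of a group were not 8 independent measurements. Within a group, samples 1 to 4 differed from each other in their counts by about the sampling noise, as did those of samples 5 to 8. In these 24 pairs the chi-square of the counts per degree of freedom was 0.987 to 1.05, with p under 0.05 in 14 pairs, against 5.23 to 5.44 in the other 32 pairs. Samples 1 to 4 and samples 5 to 8 were therefore averaged as library A and library B of each group, and n below is 2 libraries per group. Library totals ran from 30220749 to 35315408 reads, and sample totals from 7526676 to 8859862. Nothing in the labels says that the libraries came from separate cultures, so p-values measure only the spread between these libraries, which may be technical. All 10 neuroendocrine markers on the list were well above the test's minimum (summed value 65622 to 67445 in empty and 61161 to 63932 in Wnt5a), and Chga stood at 4043 ± 462 (SD, n = 2) in empty and 3403 ± 561 in Wnt5a (limma adjusted p = 0.428).

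Groups were compared with limma on log2(value + 1) for the 12357 genes whose mean value was at least 10, with Benjamini-Hochberg adjustment over all of them and a threshold of 0.05. A value is a read count divided by one size factor per sample, so a value of 1 is about 1 read per sample. Of all genes tested, 2.06% passed in either direction, 1.38% higher in Wnt5a (171 genes) and 0.672% lower (83 genes). With the median difference of each chromosome subtracted, 118 genes were higher and 89 lower. Of the 10 members 9 could be tested. Wnt5a alone passed, in the higher direction, so 0 of 9 were called lower; edgeR and DESeq2 on the recovered reads also called Wnt5a alone among them. At an unadjusted p under 0.05 there were 4 of the 9 members, Wnt5a, Wnt4, Ptk7 and Vangl2, against 1988 of all 12357 genes tested. The 2 libraries of one group lay wholly above or below those of the other for 5 of the 9 members, and for 44.2% of all genes tested. The median difference of the 9 was -0.05 on the log2 scale, against 0.00 over all genes tested.

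**Figure D1:**
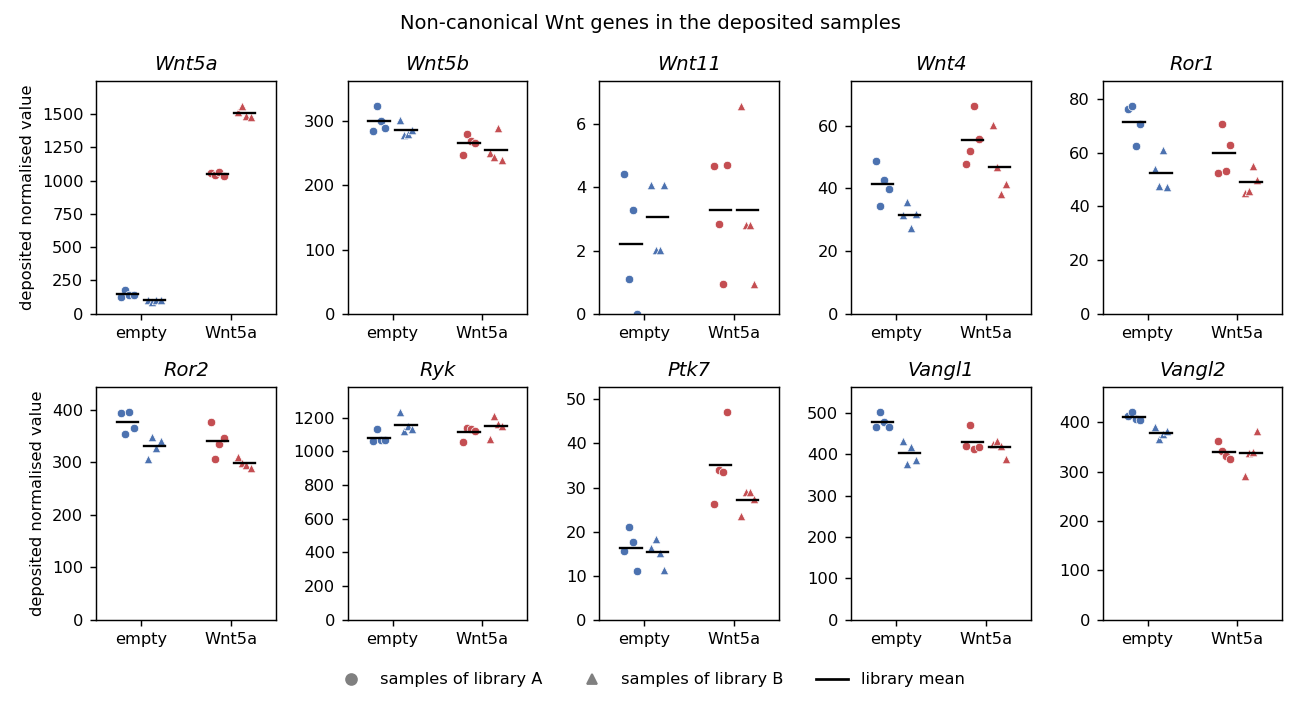
Deposited normalised value (vertical axis, from 0, one scale per gene) of each member in the 8 empty and 8 Wnt5a samples; circles are samples of library A, triangles samples of library B, and black lines library means. Wnt5a and Ptk7 are the members whose 2 groups of samples do not overlap.

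Among the ligands, Wnt5a was measured at 90.4 to 174 in the empty samples (median 114) and at 1032 to 1560 in the Wnt5a samples (median 1272). Library means were 144 (A) and 99.8 (B) in empty and 1049 (A) and 1509 (B) in Wnt5a. Every Wnt5a sample was above every empty sample, and the gene was already transcribed in the controls, with 523 and 392 reads in their libraries. Wnt5a rose by 3.38 on the log2 scale (SE 0.22, 95% interval 2.86 to 3.90, limma adjusted p = 0.0010), from 122 ± 31.4 (SD, n = 2) to 1279 ± 325. The ratio of the group means was 10.5-fold. Matched by sample number, A against A gave 7.27-fold and B against B 15.1-fold. The numbers do not establish that pairing, so these 2 folds do not show that the rise differed in size. The 2 libraries lay apart within each group and in opposite order, A above B in empty and B above A in Wnt5a. The nearest tested genes on chromosome 14, Erc2 and Cacna2d3, had differences of -0.45 (adjusted p = 0.177) and -0.16 (0.449).

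Wnt5b, the closest paralog of Wnt5a, is a ligand of the same branches. It ranged from 278 to 324 (median 288) in empty and from 239 to 289 (median 258) in Wnt5a samples. Library means were 300 and 287 in empty and 266 and 256 in Wnt5a, so the libraries did not overlap although the samples did. The difference was -0.17 (SE 0.09, interval -0.38 to 0.04, adjusted p = 0.417).

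Wnt4 acts through both Wnt branches, depending on the tissue. Its values were 27.4 to 48.6 (median 34.9) in empty and 38.3 to 66.3 (median 49.9) in Wnt5a samples, from 124 to 236 reads per library. Library means were 41.4 and 31.6 against 55.4 and 46.7. Both Wnt5a libraries were above both empty libraries, with a difference of 0.48 (SE 0.19, interval 0.03 to 0.93), which did not pass the test (adjusted p = 0.278). Wnt11, a ligand known from convergent extension movements, was near the floor in both groups. It had 8 and 12 reads in empty, 14 and 14 in Wnt5a libraries (values 2.20, 3.06, 3.29 and 3.28). With a mean value under 10 it was not tested, and a small difference was not detectable at this depth.

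Among the receptors, Ryk, a Wnt receptor with an inactive kinase domain, was at 1065 to 1234 (median 1126) in empty and 1055 to 1212 (median 1137) in Wnt5a samples. Library means were 1083 and 1159 in empty and 1113 and 1151 in Wnt5a, fully interleaved. The difference was 0.01 (SE 0.07) with an interval of -0.16 to 0.19 (adjusted p = 0.957), so a change of more than 0.19 in either direction lies outside the interval. It is the narrowest interval among the members and rests on 3927 to 4909 reads per library.

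Ror2, the receptor tyrosine kinase-like protein most often linked to Wnt5a, was at 306 to 396 (median 351) in empty and 290 to 377 (median 308) in Wnt5a samples. Library means were 378 and 331 against 341 and 299, and the groups overlapped (difference -0.15, SE 0.11, interval -0.41 to 0.11, adjusted p = 0.613). Its paralog Ror1 was at 47.1 to 77.5 (median 61.7) in empty and 45.1 to 70.7 (median 52.9) in Wnt5a samples. Library means of Ror1 were 71.7 and 52.4 against 59.9 and 49.0 (difference -0.18, SE 0.19, interval -0.64 to 0.29, adjusted p = 0.757). In both genes library A was above library B in each group, and neither differed between groups beyond the spread of the libraries.

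Ptk7, a catalytically inactive receptor kinase that takes part in planar polarity, had the largest difference among the receptors. It was at 11.0 to 21.0 (median 15.9) in empty and at 23.5 to 47.1 (median 29.0) in Wnt5a samples. Library means were 16.3 and 15.3 (59 and 60 reads) against 35.2 and 27.2 (150 and 116 reads). All Wnt5a samples were above all empty samples, with a ratio of means of 1.98. The difference of 0.93 (SE 0.21, interval 0.44 to 1.42, unadjusted p = 0.0031) did not pass after adjustment in limma (adjusted p = 0.088). It passed when empty library A (0.97) or empty library B (0.89) was left out (adjusted p = 0.029 in each), and did not without Wnt5a library A (0.75, adjusted p = 0.356) or B (1.11, adjusted p = 0.169). In each case the lone library is assumed to vary like the other group. The neighbouring genes Srf and Klc4 on chromosome 17 had differences of 0.00 and -0.15.

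Of the polarity proteins, Vangl1 was at 377 to 502 (median 448) in empty and 389 to 471 (median 419) in Wnt5a samples. Its library means, 478 and 403 against 430 and 417, overlapped (difference -0.05, SE 0.10, interval -0.30 to 0.19, adjusted p = 0.885). Vangl2, the paralog whose loss disturbs neural tube closure in mice, was at 366 to 421 (median 397) in empty and 291 to 383 (median 339) in Wnt5a samples. Library means of Vangl2 were 412 and 379 against 341 and 338. Both empty libraries lay above both Wnt5a libraries, with a difference of -0.22 (SE 0.09, interval -0.42 to -0.01) that did not pass the test (adjusted p = 0.275). Vangl2 lies on chromosome 1, where the median difference of the 690 genes tested was -0.17; the part of that median in the value of Vangl2 was not tested, and with each chromosome's median subtracted the difference of Vangl2 was -0.04. Its nearest tested neighbours on each side, Alyref2 and Ncstn, were at -0.05 and -0.34. The next ones out, F11r and Copa, were at -0.16 and -0.24.

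**Figure D2:**
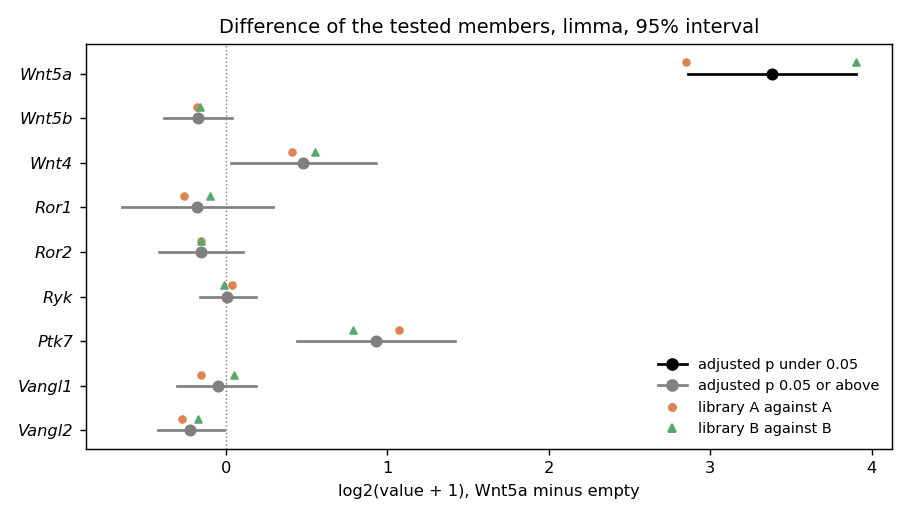
Difference between Wnt5a and empty on the log2(value + 1) scale (horizontal axis) for the 9 tested members; large points are limma estimates with 95% intervals, black where the adjusted p is under 0.05, and small points are the A against A and B against B differences. Wnt5a lies at 3.38; the interval of Ptk7 excludes 0 although its adjusted p is 0.088, and those of Ryk and Vangl1 span 0.

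Levels of different genes were compared per kilobase of the longest annotated transcript. In empty cells Ryk was highest, at 365 ± 17.6 per kilobase (SD, n = 2), above 90.7% of the listed genes that have a length. Wnt5b followed at 124 ± 3.96, then Ror2 at 88.9 ± 8.38. Vangl1 (67.4 ± 8.18) and Vangl2 (60.6 ± 3.55) overlapped and were not separable by their libraries. Wnt5a (17.4 ± 4.48) came next, and Ror1 (10.8 ± 2.36) and Wnt4 (8.70 ± 1.65) overlapped below it. Ptk7 (3.72 ± 0.167) and Wnt11 (0.763 ± 0.175) were lowest. Of Ryk, Ror2 and Ror1, which all bind Wnt5a, Ryk was thus the most abundant transcript and Ror1 the least, and their libraries did not overlap.

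In Wnt5a cells the level per kilobase of Wnt5a was 182 ± 46.4 (150 and 215 in the libraries), which with the longest transcript placed it second, below Ryk (368 ± 8.59) and above Wnt5b (110 ± 2.95). Ror2 (80.3 ± 7.55), Vangl1 (64.8 ± 1.46) and Vangl2 (52.0 ± 0.344) followed. Wnt4 (12.2 ± 1.47) stood above Ror1 (9.45 ± 1.34), and Ptk7 (7.37 ± 1.34) and Wnt11 (0.953 ± 0.00172) remained last. No neighbours in this order overlapped. The order depends on the length used: divided by the median instead of the longest annotated transcript, Ryk was at 664 in empty, Vangl1 at 614, Vangl2 at 245, Wnt5b at 130 and Wnt5a at 97.3, which puts both Vangl genes above Wnt5b. In Wnt5a cells the same division gave 1020 for Wnt5a, 671 for Ryk and 590 for Vangl1, so that Wnt5a and not Ryk came first. That division was chosen after the levels in empty were seen, and the length of the lentiviral transcript is not known.

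**Figure D3:**
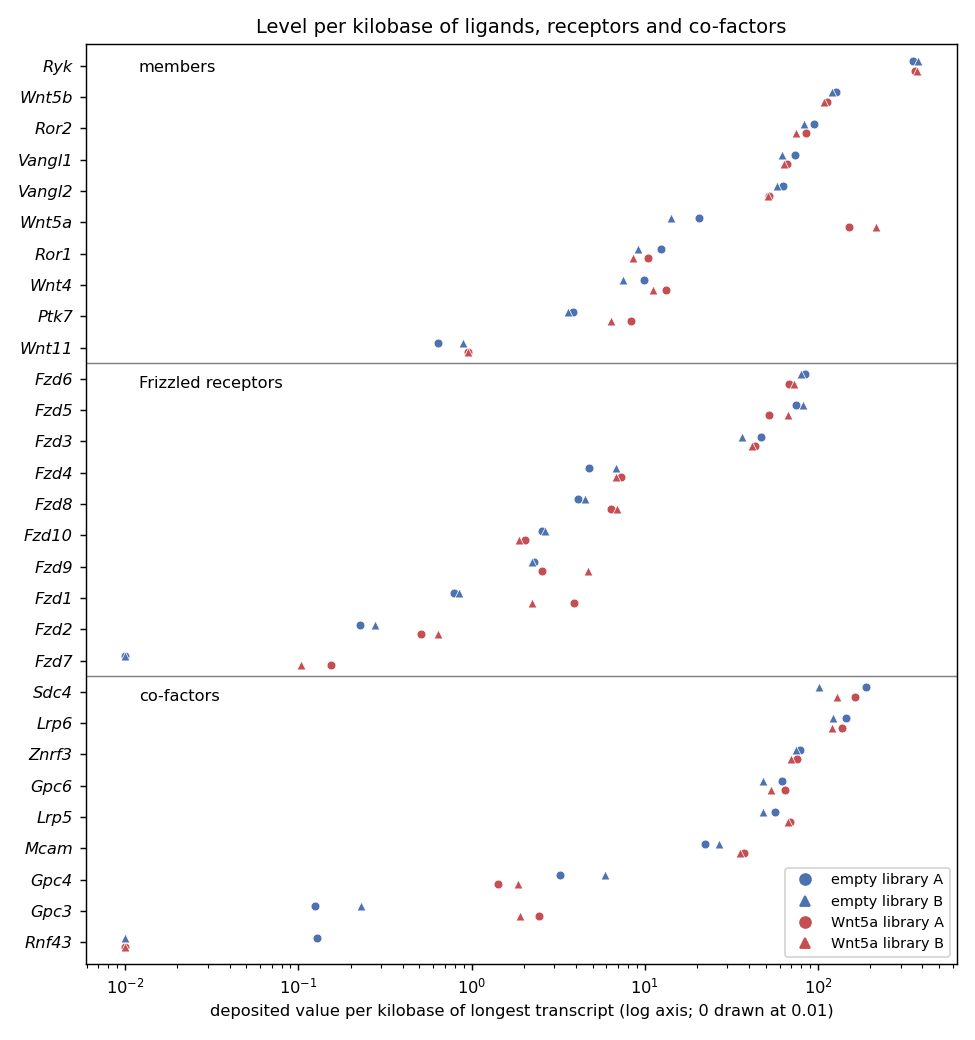
Deposited value per kilobase of the longest transcript (logarithmic axis, values of 0 drawn at 0.01) of the members, the Frizzled receptors and the cell surface co-factors in each library of the empty (blue) and Wnt5a (red) groups; circles are library A and triangles library B. On this length Ryk is the highest member in both groups and Wnt5a moves from 17.4 to 182; with the median length Wnt5a (1020) is above Ryk (671) in Wnt5a cells.

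Ror and Ryk proteins work beside Frizzled receptors, the main Wnt receptors. All 10 Frizzled genes were listed, 5 passed the filter on low values and 0 were called. At an unadjusted p under 0.05 there were 3 of the 5, against 1988 of the 12357 genes tested. The highest per kilobase in empty were Fzd6 (82.0), Fzd5 (78.3) and Fzd3 (41.8), of the same order as Ror2. Those with an unadjusted p under 0.05 were Fzd8, Fzd5 and Fzd6. Fzd8 was at 24.5 and 27.0 in empty, 38.0 and 41.0 in Wnt5a (difference 0.60, adjusted p = 0.142). Fzd5 was at 515 and 568 in empty, 363 and 463 in Wnt5a (difference -0.40, adjusted p = 0.189); it lies on chromosome 1, with the chromosome median of -0.17 given for Vangl2. Fzd6 had a difference of -0.22 (adjusted p = 0.285). Of the 9 co-factors analysed, 6 were tested and 0 called, 2 having an unadjusted p under 0.05. The highest per kilobase were Sdc4 (146), a heparan sulphate proteoglycan, Lrp6 (134), a co-receptor of the beta-catenin branch, and Znrf3 (76.7), a ligase that removes Frizzled from the surface. Mcam, a surface glycoprotein described as a Wnt5a receptor, was at 67.0 and 79.7 in empty and at 112 and 106 in Wnt5a (difference 0.57, adjusted p = 0.10).

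The wider pathway was followed through 93 other listed genes in 8 lists, of which 68 were tested. Against the background of 2.06%, 3 of the 68 were called, all higher in Wnt5a. At an unadjusted p under 0.05 there were 14 of the 68, against 1988 of the 12357 genes tested. The median difference of the 68 was -0.02. The same 3 were called by edgeR and by DESeq2. The called genes were Dchs1 and Prickle1, of 17 core planar polarity genes tested, and Rhoa. In the calcium branch (17 tested), Wnt secretion (3 tested), other Wnt ligands (4 tested) and secreted antagonists (1 tested) 0 genes were called by limma, with 2, 1, 1 and 0 at an unadjusted p under 0.05.

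Dchs1, an atypical cadherin that binds Fat4 between neighbouring cells, was at 2.21 to 11.0 in empty and 32.7 to 71.4 in Wnt5a samples. Library means were 6.06 and 8.15 against 65.7 and 48.8, a rise of 2.84 on the log2 scale (SE 0.24, adjusted p = 0.0028). Prickle1, a cytoplasmic partner of Vangl proteins in the polarity complex, was at 1.02 to 7.10 in empty and 13.2 to 24.5 in Wnt5a samples. Prickle1 had 15 and 15 reads in empty, 81 and 81 in Wnt5a libraries, a rise of 2.01 (SE 0.25, adjusted p = 0.013). The groups of samples did not overlap for either gene. With a pseudocount of 10 the differences were 1.97 for Dchs1 and 1.05 for Prickle1, and edgeR gave 2.25 for Prickle1, all past the threshold. The call of Prickle1 was lost without Wnt5a library A (adjusted p = 0.063) or B (0.075), with the difference at 2.01 in both. Of the nearest tested neighbours of Prickle1, Pus7l was also higher (1.15, adjusted p = 0.040), and Pphln1, on the other side, was at 0.09 (0.658). The next ones out, Zcrb1 and Irak4, were at 0.03 and 0.49, and neither passed the test. The neighbours of Dchs1, Tpp1 and Mrpl17, were at 0.13 and -0.09. The abundant polarity genes Celsr3 (2140 in empty and 2053 in Wnt5a), Scrib (1603 and 1579) and Dvl3 (878 and 928) had differences between -0.06 and 0.08, and none passed the test. Prickle2, a more abundant paralog of Prickle1, was at 625 and 435 in empty and 457 and 321 in Wnt5a. Its difference was -0.44 (limma adjusted p = 0.385), in the other direction from Prickle1. Dvl2 had a difference of 0.26 (limma adjusted p = 0.197).

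Rhoa, the GTPase that planar polarity signalling acts through, was nearly absent from the empty libraries. It had 17 and 3 reads there and 2186 and 2164 reads in the Wnt5a libraries (values 4.69 and 0.761 against 513 and 507; difference 7.34, SE 0.48, adjusted p = 0.0010). Its size is poorly determined with so few reads in empty: it was 8.18 without empty library A, 6.49 without empty library B and 5.37 with a pseudocount of 10, and passed the test each time. The 4 tested genes next to it on chromosome 9 were Nicn1, Tcta, Gpx1 and Usp4. They were likewise between 0 and 2.20 in empty and between 27.7 and 201 in Wnt5a. Genes with a mean value under 10 were not considered as neighbours, so one low in both groups could not appear. Rhoa therefore moved together with these neighbours, none of which is on the pathway lists. Both Ryk and Rhoa are on chromosome 9, and the neighbours of Ryk, Amotl2 and Rab6b, had differences of -0.08 and 0.19.

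**Figure D4:**
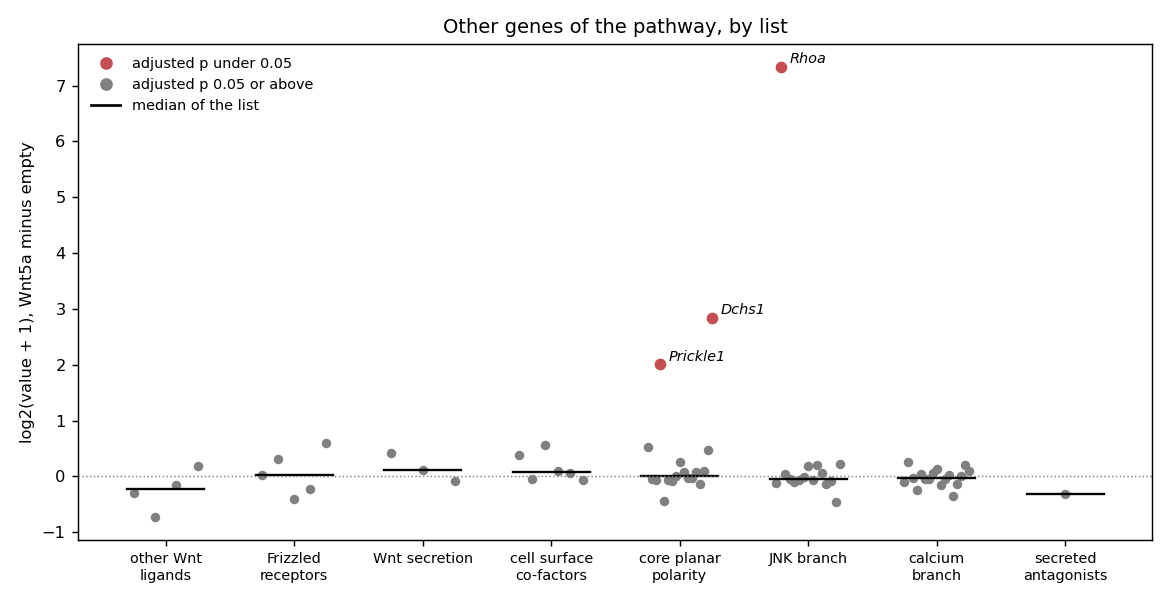
Difference between Wnt5a and empty on the log2(value + 1) scale (vertical axis) of the 68 tested genes of the 8 pathway lists; red points have an adjusted p under 0.05 and black lines are list medians. Rhoa, Dchs1 and Prickle1 stand at 7.34, 2.84 and 2.01, and the list medians lie between -0.32 and 0.11.

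The 3 genes below lay nearest to Wnt5a in profile, by the Euclidean distance between log2(value + 1) centred over the 4 libraries. They were Mmp15 (distance 0.49), a membrane-bound metalloproteinase, at 12.4 and 12.5 in empty and 115 and 129 in Wnt5a; Usp13 (0.55), a deubiquitinase, at 3.86 and 3.31 against 50.2 and 44.8; and Igfbp2 (0.64), an insulin-like growth factor binding protein, at 1.10 and 1.53 against 20.4 and 22.3. All points share the same 4 libraries. None of the 3 had the library order of Wnt5a, with A above B in empty and B above A in Wnt5a. Usp13 and Igfbp2 were under 10 in empty and were tested only through their values in Wnt5a. The added 1 shrinks differences of genes this low, so a short distance does not mean an equal fold.

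Markers of other cell types were low apart from Dcn and Fn1, which are on the fibroblast list. Summed over a library, the 3 leukocyte markers analysed reached 10.8 to 15.3 in empty and 12.0 to 14.8 in Wnt5a, the 3 endothelial markers 4.32 to 5.79 and 3.52 to 4.23, and the 4 markers of other lung epithelium 44.4 to 47.9 and 42.5 to 42.7. Fibroblasts are a common source of Wnt5a in tissues. The 9 fibroblast markers analysed summed to 472 to 665 in empty and 361 to 375 in Wnt5a. Most of that sum was Dcn (597 and 340 in empty, 241 and 246 in Wnt5a; difference -0.89, adjusted p = 0.131). Fn1 was at 60.4 and 115 in empty, 129 and 111 in Wnt5a (0.52, adjusted p = 0.449), and the other 7 did not exceed 9.41 in any library. The part of such cells in the values of the members was not tested. In bulk RNA, fewer cells expressing a gene and less RNA per cell cannot be told apart.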

How the data were processed

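Poly(A) RNA was sequenced from 8 empty and 8 Wnt5a preSC samples. TopHat, Bowtie, HTSeq and DESeq2 are named, without version or order, per the submitters' processing notes; genome build and annotation are not given in the sources used here. The authors deposited 1 normalised signal value per gene and sample. Within each sample 100% of the deposited values were whole multiples (tolerance 0.001 reads) of a step of 0.934 to 1.11, so the reads behind each value were recovered by dividing by the step.

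Genes with a mean value of at least 10 were tested with limma 3.58.1 (R 4.3.3, eBayes with trend) on log2(value + 1), a scale that understates changes of low genes, with Benjamini-Hochberg adjustment over 12357 genes. edgeR 4.0.16 and DESeq2 1.42.0 on the recovered reads were alternatives, with other pseudocounts, filters, centring, a replicate block, lengths and omission of each library. Transcript lengths and coding sequences came from GENCODE M21 (17455 of 17655 symbols matched), promoters and gene order from RefSeq, GRCm38.p6; promoters were matched for 8 of the 10 members. The limma fit was tested on simulated data, and edgeR and DESeq2 were not.

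The members, gene lists and tests were chosen with earlier results of these data known. Named genes were the members, Rhoa, Chga, pathway genes past the threshold, the receptors and co-factors highest per kilobase, the 3 genes nearest to Wnt5a in profile, and chromosomal neighbours. Neighbours are the nearest tested genes in RefSeq order, with untested genes passed over. Mcam, the genes listed as abundant polarity genes, Prickle2, Dvl2, Fzd8, Dcn, Fn1, Fzd1, Gpc3, Gpc4, Dkk3, Pdzrn3 and Wnt8b were named after their values were seen.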

Additional observations from a re-analysis of the deposited data

Results flagged for a closer look

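Ptk7 stood apart in 1 sample. Wnt5a sample 4, one of the 4 samples averaged in library A, had the highest Ptk7 value, 47.1 (50 reads), against 23.5 to 33.9 in the 7 other Wnt5a samples; the gap to the next sample was 0.56 of the range, above the 95% limit for a single extreme value among 8. Within the 4 samples of library A alone the gap was 0.63 of the range, which is below the limit for 4 values. Chance alone marks about 1 in 20 groups. Without this sample the mean of library A was 31.3 instead of 35.2, and the difference of Ptk7 between Wnt5a and empty was 0.85 (limma adjusted p = 0.095) instead of 0.93 (0.088). The lowest Wnt5a sample (23.5) was above the highest empty sample (21.0) with or without it.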

How the results depend on the processing

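With 2 libraries per group the number of calls moved with the processing, and the call of Wnt5a did not: its difference stayed between 3.12 and 3.64 and past the threshold under every alternative run. All genes called numbered 254, against 146 with no filter on low values, 102 with a minimum of 50, 158 without a trend, 538 by DESeq2, 4377 with all 16 samples counted separately, which treats repeats of a library as replicates, and 138 to 1098 when 1 library was left out (the lone library is assumed to vary like the other group). Members called numbered 1, against 5 with 16 separate samples (Wnt5a, Wnt5b, Wnt4, Ptk7 and Vangl2) and 1 to 2 when 1 library was left out. Pathway genes called numbered 3, against 6 with no filter, which adds Wnt8b, Gpc3 and Pdzrn3, 1 with a minimum of 50, 27 with 16 separate samples and 2 to 9 when 1 library was left out.

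The labels number the samples alike in both groups. With 2 pairs of libraries the numbers do not establish a pairing; across 12357 genes the deviations of like-numbered libraries from their group means had a Pearson r of 0.44 (Spearman 0.53), a description across genes, which are not independent. With the number as a replicate block 2095 genes were called, 4 of them members (Wnt5a, Wnt4, Ptk7 and Vangl2, limma adjusted p = 3.8e-04, 0.049, 0.016 and 0.049) and 13 pathway genes.

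Differences near 0 changed sign: Ryk was at -0.0047 with median centring, -0.01 without Wnt5a library B and -0.03 without empty library A, and Ror1 and Vangl1 were at 0.05 and 0.07 without empty library A; without empty library B the 3 were at 0.06, -0.40 and -0.17. With the median transcript length, levels per kilobase in empty became 97.3 for Wnt5a, 130 for Wnt5b, 1.65 for Wnt11, 664 for Ryk, 4.47 for Ptk7, 614 for Vangl1 and 245 for Vangl2; Wnt4 has a single annotated transcript, as has Ror1. Depth limits Wnt11, at 8 to 14 reads per library.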

Other observations

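Of the pathway genes analysed, 25 fell below the filter on low values and were not tested. In 9 of them both Wnt5a libraries were above both empty libraries, in 5 they were below, and in 11 the groups overlapped. The same counts over all genes below the filter were not made, so nothing about the pathway is read from them. Among the higher ones, Fzd1, a Frizzled receptor, had 12 and 14 reads in empty, 70 and 40 in Wnt5a libraries. Pdzrn3, a ubiquitin ligase, had 0 and 0 against 42 and 24 reads; 0 reads allow up to 3. Gpc3, a glypican co-factor, had 1 and 2 against 23 and 18 reads. Among the lower ones, the glypican Gpc4 had 31 and 61 reads in empty against 16 and 21, and Dkk3, of the secreted antagonists, 20 and 22 against 9 and 6. These 5 were chosen after their values were seen, and no fold is given.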
